A study of Bos taurus with 27 samples.

Results

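The effect of maternal diet was examined in 8 small cattle (Bos taurus) embryos of similar size, out of 27 embryos sequenced at day 15 of pregnancy. All 8 belong to the short size class. They were chosen by the size number in their titles, from 1.3 to 2.6, whose unit the labels do not state. The dams of 3 embryos received an omega-3 diet (embryo 05 with size 2.1, embryo 12 with 2.6 and embryo 13 with 1.3). The dams of the other 5 received an omega-6 diet (embryos 18 and 19 with size 2.3, 20 with 2.1, 21 and 30 with 2.5). Embryo 25, an omega-6 embryo with size 1.4, was left out because its library stands apart. The titles also carry a letter, read here as male (m) and female (f): embryos 05, 12, 18 and 21 are m and embryos 13, 19, 20 and 30 are f. The labels give no composition of the diets, no dam and no untreated group, and several embryos may share a dam. The p-values therefore refer to variation among these 8 embryos and not among dams.

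At this stage the cattle embryo is not yet attached to the uterus. Its outer layer, the trophectoderm, lengthens the embryo from a sphere into a filament and secretes interferon tau, the signal by which the dam recognises the pregnancy. The embryo takes up lipid from the uterine fluid. Omega-3 and omega-6 fatty acids are substrates for prostaglandins and ligands of nuclear receptors of the PPAR family, which is the background for asking whether the diet of the dam alters the embryo's transcripts. Because size itself goes with many transcripts in this series, embryos of one size give the comparison of diets that depends least on elongation.

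RNA was read from whole embryos with 1 library per embryo. Total counts ran from 17931620 (embryo 20) to 28560043 (embryo 18) among the 8 embryos. The size match was close but not complete: size numbers were 2 ± 0.656 (SD, n = 3) under omega-3 and 2.34 ± 0.167 (SD, n = 5) under omega-6, and embryo 13 was the smallest of the 8. The difference was -0.34 (exact two-sided permutation p = 0.339 over the 8 embryos). Because the embryos were chosen by this number, the test cannot show that the diets match in size. Of 18 genes called higher in m embryos among the embryos outside the 8 (without 07, 22 and 25), 12 were higher in every m embryo than in every f embryo of the 8. Embryo 07 kept its letter f in the size fit over 17 other embryos and in the fit over all 27, described below. On the root mean square difference of log2 CPM (counts scaled to a common library size) per gene, embryo 25 lay 0.76 to 1.06 from the 8 embryos, which lay 0.56 to 0.757 from each other, over the genes kept and the scaling fitted on all 27 libraries. The deposited files list genes only by Ensembl identifier and no table used here pairs these with symbols. Transcripts of the trophectoderm, of the embryo proper or of uterine cells could therefore not be named, and the labelled tissue was not checked against its markers.

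Between the diets, 1 gene of 11728 tested was called (0.00853% of genes), lower under omega-3, and 0 genes were called higher. Genes were compared with edgeR's quasi-likelihood test with the letter in the model, at a Benjamini-Hochberg adjusted p below 0.05. At an unadjusted p below 0.05 there were 233 genes (1.99%), with 69 higher (0.588%) and 164 lower (1.4%) under omega-3, where 5% of the tested genes would be 586. This total and its balance depended on the test and the embryos: limma-voom gave 813 higher and 615 lower, and edgeR gave 271 and 254 without embryo 05, 250 and 298 without 18, 65 and 72 without 13 and 54 and 73 with log2 size in the model. In whole embryos, fewer cells of a type and less RNA per cell cannot be told apart. The median gene differed by 0.11 log2 units in size, against a median standard error (SE) of 0.18. For 82.3% of genes the 95% interval of the diet difference stayed inside 2-fold in both directions, and for 57.3% inside 1.5-fold. Larger differences in the remaining genes cannot be set aside at this number of embryos. Over the alternatives the share inside 2-fold ran from 61.3% (no filter on low counts) to 83.9% (limma-voom). It was 69.5% without embryo 13 and 71.5% with log2 size in the model.

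**Figure D1:**
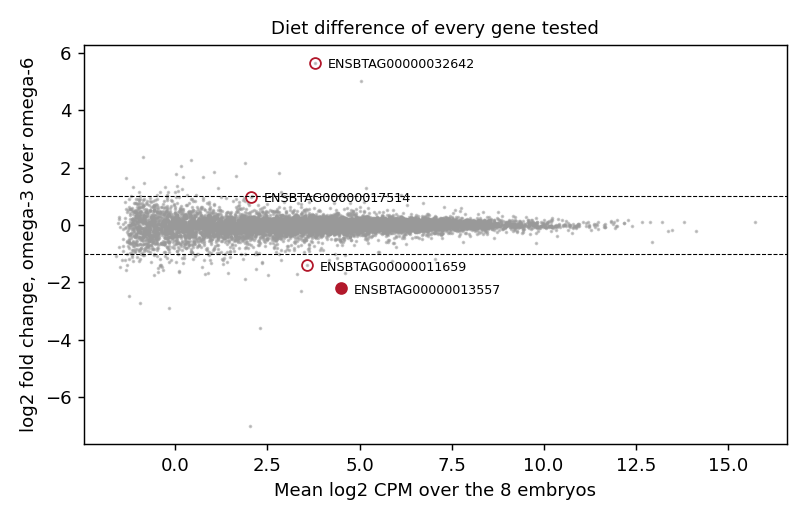
Log2 fold change of omega-3 over omega-6 (vertical axis) against mean log2 CPM over the 8 embryos (horizontal axis), with 1 point per gene tested and dashed lines at 2-fold. The filled red point is the 1 called gene, at -2.21. The open red points are the other 3 named genes, at 5.66, 0.98 and -1.41, which did not pass the test.

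The called gene was ENSBTAG00000013557. It measured 7.59, 8.31 and 5.96 CPM in the omega-3 embryos 05, 12 and 13. In the omega-6 embryos it measured 43 CPM in 18, 25.4 in 19, 35.9 in 20, 27.3 in 21 and 26.2 in 30. Every omega-3 embryo was thus lower than every omega-6 embryo, and both letters occur at both levels. The means were 7.29 ± 1.21 CPM (SD, n = 3) and 31.6 ± 7.66 CPM (SD, n = 5), a 4.61-fold difference (log2 fold change -2.21 ± 0.21, SE; edgeR adjusted p = 0.0213). The counts behind these values were 159 to 197 under omega-3 and 596 to 1245 under omega-6.

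The call of ENSBTAG00000013557 was lost without most of the embryos, each left out in turn, although the size of its difference changed little. Over 16 alternative settings its log2 fold change stayed between -2.36 and -2.04, while the adjusted p ran from 3.07e-21 to 1. The call ended without embryo 05 (adjusted p = 0.0796), 12 (0.185), 13 (0.527), 18 (0.0868), 19 (0.0782) or 30 (0.0749), with log2 size in the model (0.326), with embryo 25 added (1) and with all 27 embryos sharing the spread (1), all by edgeR.

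Outside the 8 embryos both levels of the gene occurred under both diets. The values in the next sentences are CPM scaled over all 27 libraries, on which the small omega-3 embryos reach at most 8.07 and the small omega-6 embryos start at 24.7. Of the 13 other omega-3 embryos, 3 lay at or under the lower value, 3 in between and 7 at or over the upper value. Of the 6 other omega-6 embryos, 2 lay at or under the lower value, 1 in between and 3 at or over the upper value. The low embryos were 08, 07 and 16 under omega-3 (3.62, 6.93 and 0.683 CPM) and 23 and 25 under omega-6 (6.56 and 5.12 CPM). The smallest embryo of the series, embryo 14 under omega-3, held 31.6 CPM, and embryo 25, the omega-6 embryo nearest in size to embryo 13, held 5.12 CPM.

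**Figure D2:**
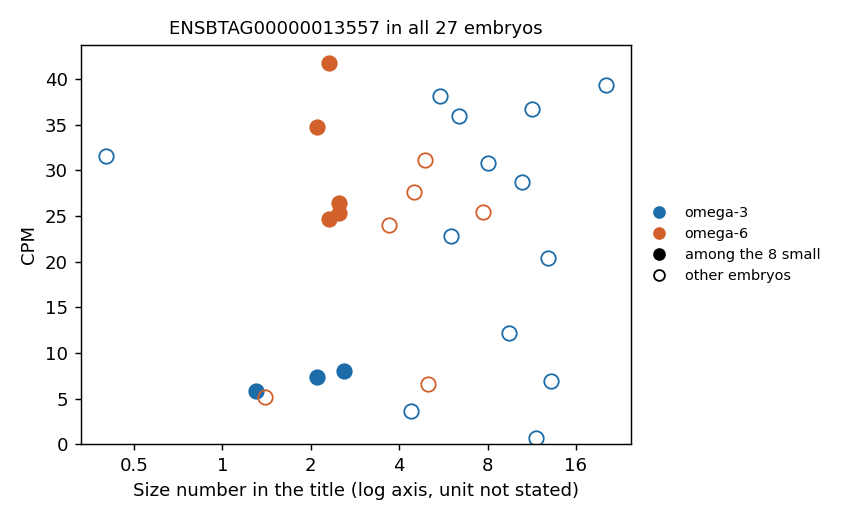
CPM of ENSBTAG00000013557 (vertical axis) against the size number in the title (horizontal log axis) in all 27 embryos, coloured by diet, with the 8 small embryos filled. The filled omega-3 points sit at 5.79 to 8.07 CPM under the filled omega-6 points at 24.7 to 41.7 CPM, while open points of both diets lie at both levels.

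The next gene lower under omega-3 was ENSBTAG00000011659. It measured 7.88, 3.97 and 6.03 CPM in embryos 05, 12 and 13. Under omega-6 it measured 14.3, 14.2, 12.6, 20.1 and 16.1 CPM in embryos 18, 19, 20, 21 and 30. The groups did not overlap (1.88% of all tested genes, 220, had groups that did not overlap), but the log2 fold change of -1.41 ± 0.25 (SE) did not pass (edgeR adjusted p = 0.928, and 0.000338 to 1 over the alternatives, the lowest with DESeq2). Elsewhere in the series, on the scale of all 27 libraries, omega-3 embryos of middle size ran from 6.04 to 19.8 CPM (n = 5) and omega-6 embryos of middle size from 3.06 to 19.4 CPM (n = 4), so the separation was not present there.

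Upward, the smallest p belonged to ENSBTAG00000032642, which was high in 2 of the 3 omega-3 embryos. It measured 61.2 CPM in embryo 12 and 43.6 in embryo 13, but 1.41 in embryo 05. The omega-6 embryos held 0.345, 0.256, 0.898, 1.74 and 0.338 CPM in the order 18, 19, 20, 21 and 30. Embryo 05 thus lay among the omega-6 embryos, under embryo 21. In counts, embryos 12 and 13 held 1450 and 1164 reads and the other 6 embryos 6 to 38. The log2 fold change of 5.66 ± 1.01 (SE) did not pass (edgeR adjusted p = 0.928). Over the alternatives the adjusted p ran from 0.00146 to 1, and the gene was called with DESeq2 (0.0074), with all 27 embryos in the fit (0.00146) and without embryo 05 (0.00548), with log2 fold changes of 5.62, 5.67 and 6.23. None of the 19 embryos outside the 8 reached the level of embryos 12 and 13: the highest was embryo 11, an omega-3 embryo, with 3.21 CPM over all 27 libraries.

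ENSBTAG00000017514 was the other gene named upward. It measured 4.85, 7.09 and 5.7 CPM in embryos 05, 12 and 13, and 2.76, 2.86, 3.65, 2.84 and 3.04 CPM in embryos 18, 19, 20, 21 and 30. The groups did not overlap, yet the log2 fold change of 0.98 ± 0.21 (SE) did not pass (edgeR adjusted p = 1, and 0.137 to 1 over the alternatives). Embryo 25, the omega-6 embryo left out, held 10.6 CPM over all 27 libraries, more than any of the 8.

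**Figure D3:**
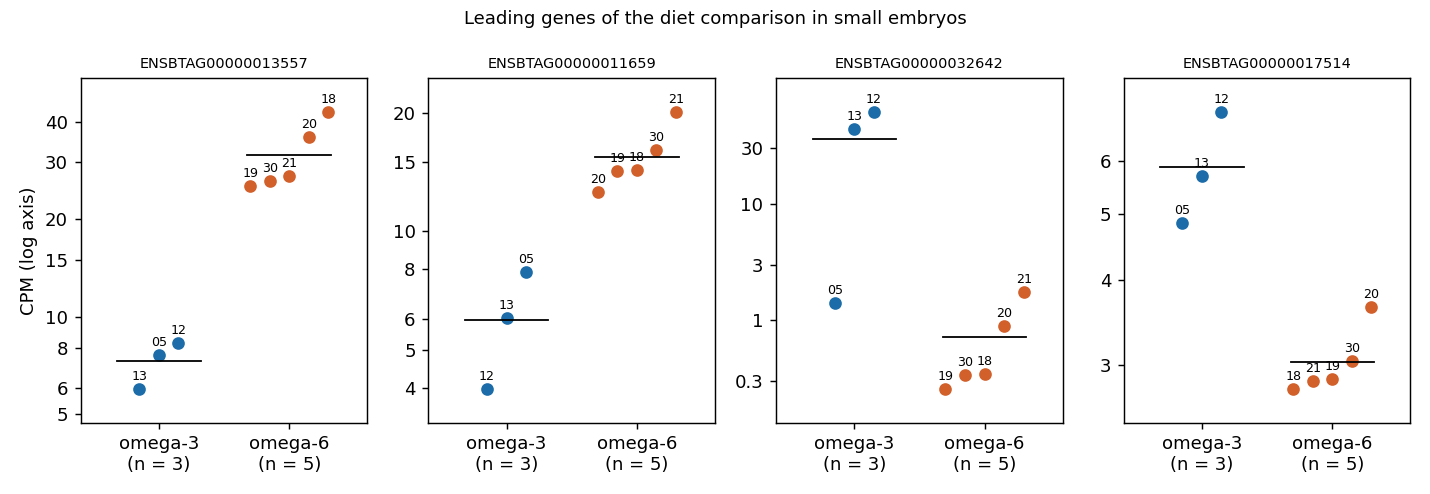
CPM (vertical log axes, each panel with its own range) of the 4 named genes in the 3 small omega-3 and 5 small omega-6 embryos, with embryo numbers beside the points and a line at each group's mean. In 3 panels the groups do not overlap, while for ENSBTAG00000032642 embryo 05 at 1.41 CPM lies among the omega-6 embryos.

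Large fold changes were few, and in most of them the values of the diets overlapped. Of the tested genes, 13 differed by at least 4-fold between the diets (log2 fold change of 2), 6 upward and 7 downward, and 1 of these was called. In 10 of the 13 the values of the 2 diets overlapped and in 3 they did not, where 1.88% of all tested genes did not overlap. In 6 of the 13 the level stayed under 5 CPM in every embryo. Among the 233 genes at an unadjusted p below 0.05, 50 differed by at least 2-fold (11 higher and 39 lower) and the median size of the difference was 0.53 log2 units. Their median level was 12.6 CPM, against 20.7 CPM over all tested genes.

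Some genes were on in certain embryos and off in others, and none of them split cleanly by diet. With low set at under 0.5 CPM and high at 10 CPM or more, 14 genes were low in at least 2 of the 8 embryos and high in at least 2. These limits were chosen after the values were seen. None of the 14 was high in all embryos of one diet and in no embryo of the other, 11 were high in embryos of both diets, 1 only in omega-3 embryos and 2 only in omega-6 embryos. By edgeR 0 were called, and 4 of the 14 had an unadjusted p below 0.05, against 1.99% of all genes tested (DESeq2 called ENSBTAG00000032642, which is among them). ENSBTAG00000045750 and ENSBTAG00000045544 followed the letter in the 8 embryos. They held 38.8 to 79.6 and 27.5 to 47.3 CPM in the 4 m embryos. In the 4 f embryos they held at most 0.15 and 0.0375 CPM. Outside the 8, on the scale of all 27 libraries, each reached 10 CPM in 9 of 13 omega-3 embryos. That is more than the omega-3 embryos there with letter m, so the letter was not followed throughout.

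The on and off genes included ENSBTAG00000015792, singled out for its fold change. It measured 39.8, 53.2 and 72.3 CPM in the omega-3 embryos 05, 12 and 13. In the omega-6 embryos it was high in 20 (33 CPM) and 30 (62.2 CPM) and had 0, 0 and 0.0457 CPM in 18, 19 and 21. Its log2 fold change of 5.02 ± 2.12 (SE) did not pass (edgeR adjusted p = 1). Among the embryos outside the 8 it reached 10 CPM in 10 of 13 omega-3 embryos and 5 of 6 omega-6 embryos.

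A pair of on and off genes, ENSBTAG00000001219 and ENSBTAG00000048049, changed from embryo to embryo together. They held 76.8 and 93.7 CPM in embryo 20 and 55.4 and 66.1 CPM in embryo 21. In embryo 05 they held 0.373 and 0.332 CPM, and in embryo 19 they held 0.0854 and 0 CPM. Both diets thus contain embryos at both levels. The values are uncertain if the genes are near-identical copies, since the treatment of reads that fit both is not stated.

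Among the most counted transcripts no diet difference passed the test. For each of the 10 genes with the highest mean CPM over the 8 embryos the values of the diets overlapped, as they did for all but 1.88% of tested genes. Of the 10, 0 were called (edgeR, log2 fold changes from -0.59 to 0.12). The gene ranked 1 measured 56535 ± 3231 CPM (SD, n = 3) under omega-3 and 53011 ± 4679 CPM (SD, n = 5) under omega-6. The gene ranked 7 varied most between embryos, 7.05-fold, from 2991 CPM in embryo 18 to 21093 CPM in embryo 21, both omega-6 embryos. The gene ranked 10 stayed between 4884 and 5833 CPM in all 8.

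Whole profiles of the diets were intermixed. On log2 CPM of the 8 embryos the first principal component held 26.9% of the variance and placed the omega-3 embryo 05 (-34.1) beside the omega-6 embryos 20 (-25.9) and 21 (-20.3), and the omega-3 embryos 12 (17) and 13 (20.7) beside the omega-6 embryos 18 (18.2) and 19 (24.8). Embryo 30 lay near the middle (-0.348). The second component (20%) was positive in the 4 f embryos (7.85 to 26.8) and negative in the 4 m embryos (-26.2 to -7.4). A diet difference passed on neither (exact two-sided permutation p = 0.929 and 0.554, adjusted 0.929 for both over 7 measures; 3 against 5 embryos cannot give less than 0.0179). The nearest library of each omega-3 embryo was an omega-6 one: 21 for embryo 05 and 18 for embryos 12 and 13. Omega-6 embryos are the more numerous among the possible neighbours. The nearest library of the omega-6 embryos was an omega-3 one for 18 (13), 20 and 21 (both 05). It was an omega-6 one for 19 (30) and 30 (20). Over the genes and scaling of the 8 libraries alone, root mean square differences per gene were 0.554 to 0.65 log2 units within omega-3 (3 pairs), 0.532 to 0.655 within omega-6 (10 pairs) and 0.505 to 0.692 between diets (15 pairs), with medians of 0.628, 0.619 and 0.567.

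**Figure D4:**
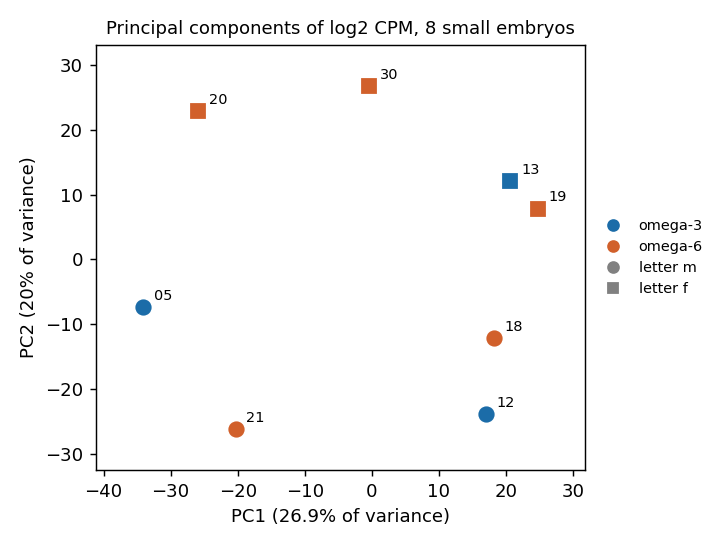
First (horizontal) and second (vertical) principal component of log2 CPM in the 8 small embryos, coloured by diet and shaped by letter, with embryo numbers. Both diets occur on both sides of the first component, and the f embryos lie at 7.85 or higher and the m embryos at -7.4 or lower on the second.

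The first component went with the genes that are low in the libraries that stand apart. In embryos 22 and 25, 157 genes were at least 4-fold lower than the median of the 17 embryos outside the 8, both of these left out. Apart from embryo 14, those 17 embryos are larger than the 8, with size numbers of 4.4 to 20.3. The median log2 ratio to those 17 embryos over these genes was -2.41 in embryo 22 and -2.57 in embryo 25. In the 8 small embryos it was -0.95 in 05, -0.91 in 20, -0.64 in 30 and -0.47 in 21, against -0.13 in 19, -0.1 in 13, 0.07 in 18 and 0.13 in 12. For the 1026 genes at least 2-fold lower in both 22 and 25 the values were smaller, -0.51 in 05, -0.57 in 20, -0.44 in 30 and -0.3 in 21, and between -0.06 and 0.1 in the other 4. The lower 4 embryos include 1 of the 3 omega-3 embryos and 3 of the 5 omega-6 embryos. For the 287 genes at least 2-fold higher in both 22 and 25, the median was 0.35 in 05, 0.47 in 20, 0.42 in 30 and 0.16 in 21. It was 0.24 in 13, 0.16 in 19, 0.11 in 18 and 0.04 in 12, so embryo 21 lay under embryo 13. The 4 genes at least 4-fold higher in both did not follow the component, with 0.75 in 05 against 4.3 in 12 and 4.64 in 13. The part of the genes low or high in 22 and 25 in the diet comparison was not tested.

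Embryos of both diets were then placed on the size axis by genes chosen in other embryos. In the 17 other embryos, 3573 of 12625 genes followed the size number (edgeR, adjusted p below 0.05, with diet and letter in the model), 1659 rising and 1914 falling with size. The size position of an embryo was its mean log2 CPM over the rising genes minus that over the falling genes. It was -0.44 in embryo 05, 0.14 in 12 and -0.25 in 13 under omega-3. Under omega-6 it was -0.11 in 18, 0.06 in 19, -0.47 in 20, 0.17 in 21 and -0.31 in 30. The groups overlapped fully, with means of -0.181 ± 0.295 (SD, n = 3) and -0.134 ± 0.263 (SD, n = 5), and the difference of -0.0478 was smaller than either spread (exact two-sided permutation p = 0.821, adjusted 0.929). Embryo 13, with the smallest size number, ranked above 05, 20 and 30. The smallest embryo of the series, 14, was at -1.22 and the long embryos at 0.75 to 1.07.

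**Figure D5:**
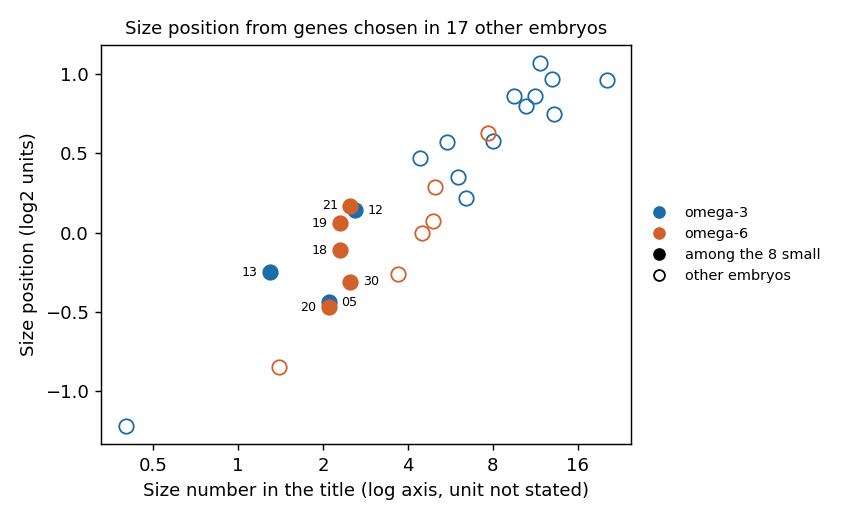
Size position in log2 units (vertical axis) against the size number in the title (horizontal log axis) for all 27 embryos, coloured by diet, with the 8 small embryos filled and numbered. The 8 embryos sit between -0.47 and 0.17 with both diets intermixed, between the smallest embryo at -1.22 and the long embryos at 0.75 or higher.

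Gene by gene, the genes that rise with size leaned lower under omega-3. Of the 1587 rising genes tested here, 36% had a higher fitted level under omega-3, against 62.1% of the 1775 falling genes and 51% of all 11728. The median log2 differences were small, -0.05, 0.04 and 0 in the same order. At an unadjusted p below 0.05, 7 rising genes were higher and 57 lower, and 18 falling genes were higher and 10 lower. These are 4.03% of the rising and 1.58% of the falling genes, against 1.99% of all genes, and 0 genes of either list were called. With log2 size in the model the shares were 44.9% and 52.2%, against 51.8% of all genes. Without embryo 13 the mean size numbers were 2.35 and 2.34, and the shares were 28% and 66.9%, against 50.3% of all genes. The omega-3 embryos left in that fit, 05 and 12, are both m. With the letter in the model they were therefore set against the m omega-6 embryos 18 and 21. Size positions, described above, were -0.44 in 05 and 0.14 in 12, against -0.11 in 18 and 0.17 in 21. The part of size in this lean was not tested.

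The counts were also taken by level. When tested genes were ranked by mean CPM and cut in 3 classes, 2.33% of the least counted genes (up to 8.82 CPM), 2.07% of the middle class and 1.56% of the most counted class (from 41.6 CPM) had an unadjusted p below 0.05, with the 1 called gene in the middle class. Precision differed more: the interval lay within 2-fold for 52.8%, 95.3% and 98.7% of genes.

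The same comparison was made in embryos of middle size, which share no library with the small ones (5 omega-3 embryos with size 4.4 to 8 and 4 omega-6 embryos with size 4.5 to 7.7). No gene of the 11582 tested there was called (0% by edgeR, 355 with an unadjusted p below 0.05, and 0 by DESeq2 and by limma-voom). Of the 228 genes at an unadjusted p below 0.05 in the small embryos that were also tested there, 82 had the same sign. There 16 of the 228 reached that level, 7 in the same direction and 9 in the opposite one, against 349 of all 11477 genes tested in both, 135 in the same direction. The median difference in the direction of the small embryos was -0.07, against 0.52 in the small embryos. Over all 11477 genes tested in both, 5282 had the same sign and the diet differences had a Pearson r of -0.121 across genes, which are not independent replicates.

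All 4 named genes had the opposite sign there, and none passed the test. In the middle-sized embryos ENSBTAG00000013557 differed by 0.22 ± 0.57 (SE) and ENSBTAG00000011659 by 0.26 ± 0.44, upward under omega-3 and not downward (edgeR adjusted p = 0.997 for both). ENSBTAG00000017514 differed by -0.26 ± 0.54 and ENSBTAG00000032642 by -1.26 ± 0.33 (adjusted p = 0.997 for both). A test of the difference in diet effect between the small and middle-sized embryos had 0 calls among 12029 genes by edgeR (0%, with 477 under an unadjusted p of 0.05), 1 with DESeq2 and 0 with limma-voom. The gene called by DESeq2 was ENSBTAG00000032642, with an edgeR difference of 6.91 ± 1.12 (SE, adjusted p = 0.153) that passed without embryo 05 (2.33e-05) and without a filter on low counts (0.0329). For ENSBTAG00000013557 the difference was -2.32 ± 0.75 (SE, edgeR adjusted p = 0.999).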

How the data were processed

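RNA of 27 single embryos was analysed, 8 of them in the diet comparison. Per the labels' protocols, libraries were stranded, kept polyadenylated RNA and were read as single reads of 100 bp. STAR and featureCounts are named in the submitters' processing notes. Their versions, the genome build, the annotation and the strand setting: not given in the sources used here. The deposited files hold the authors' raw read counts over 19994 Ensembl gene identifiers, not normalised. The RefSeq gene table used here matched 0 of these identifiers, so the gene lists and cell type markers planned by symbol were not run and no sequence is shown.

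Counts were filtered with filterByExpr by diet (minimum count 10, minimum total 15, minimum proportion 0.7), scaled with TMM factors and tested with edgeR 4.0.16 in R 4.3.3 (glmQLFit and glmQLFTest, two-sided, Benjamini-Hochberg over all genes tested) on a model of letter and diet over the 8 embryos. SE was obtained by dividing each absolute log2 fold change by the root of its F statistic. CPM use TMM-scaled library sizes, of the 8 embryos unless all 27 are named. Distances and principal components used log2 CPM with a prior count of 2. Size positions used log2(CPM + 0.5), as did the genes lower or higher in embryos 22 and 25. Single values per embryo were compared by exact permutation over 56 splits. Among the 28 pairs of libraries the chi-square of the counts was never under 20 per degree of freedom, so none repeats another. The fits were tested on simulated data. The named genes are, in each direction, the 2 called genes with the largest change or, with fewer called, the smallest p. The members, lists and tests were chosen with earlier results of these data known. Alternatives were RLE size factors, no filter on low counts, DESeq2 1.42.0, limma 3.58.1 (voom with quality weights), no letter, log2 size in the model, all 27 embryos in the fit, embryo 25 added, and each embryo left out. Leaving out each embryo in the middle-sized and interaction fits, and the size-gene lists with log2 size or without embryo 13, were added after seeing the data.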

Additional observations from a re-analysis of the deposited data

Results flagged for a closer look

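Embryo 21, an omega-6 embryo with size 2.5, lay far from the other 4 small omega-6 embryos in 3 groups of values. These 3 were the only ones flagged among all 33 groups checked, where chance flags about 1 in 20. Some of the 33 were groups of middle-sized or long embryos, to which embryo 21 does not belong. Its 10 most counted genes held 16.7% of its counts, against 13.9% to 14.4% in the other 4. The gene ranked 2 by mean CPM measured 32292 CPM in embryo 21 and 12449 to 17345 CPM in the others. The gene ranked 7 measured 21093 CPM in embryo 21 and 2991 to 8103 CPM in the others. Both genes are among the 10 most counted, so the 3 values are not independent of each other. Without embryo 21 the diet comparison still called 1 gene, ENSBTAG00000013557 (log2 fold change -2.36, edgeR adjusted p = 0.0128).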

How the results depend on the processing

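The number of genes called between the diets in the small embryos, 1 with edgeR, was 1 with RLE size factors, no filter, limma-voom or no letter, 4 with DESeq2, 0 with log2 size in the model, 0 with embryo 25 added, and 0 to 1 when each embryo was left out. The called gene was ENSBTAG00000032642 in place of ENSBTAG00000013557 with all 27 embryos in the fit and without embryo 05. The 4 genes of DESeq2 were ENSBTAG00000013557, ENSBTAG00000011659, ENSBTAG00000032642 and 1 gene lower by 0.61 log2 units. All 4 named genes kept their direction in each of 16 alternatives. Genes at an unadjusted p below 0.05, 233 with edgeR, numbered 1428 with limma-voom (813 higher and 615 lower), 127 with log2 size in the model, 419 with all 27 embryos, 525 without embryo 05 (271 higher and 254 lower), 137 without 13 and 548 without 18, and the cause was not tested. In the middle-sized embryos 0 to 1 genes were called when each was left out, and 0 otherwise. For the difference between small and middle-sized embryos 1 gene was called with no filter, 1 with DESeq2, and 0 to 1 when each embryo was left out. The difference in size position, -0.0478, ran from -0.21 to 0.0792 when each embryo was left out. The difference in genes detected at equal depth, 38.7 at 1 count or more, was -16.4 at 5 or more. Over the genes low in embryos 22 and 25, the median in embryo 05 was -0.95 at 4-fold and -0.51 at 2-fold. With 3 against 5 embryos, differences beyond the intervals given limit what can be seen at low counts most. No paired analysis was possible because the labels pair no omega-3 embryo with an omega-6 embryo.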

Other observations

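Few genes stood apart in a single small embryo. With at least 5 CPM on the higher side and at least 4-fold between 1 embryo and each of the other 7, 9 genes were found, of which 1 was in the omega-3 embryos (higher in 05) and 8 in the omega-6 embryos. Embryo 19 had 2 such genes higher and 1 lower, embryo 30 had 2 higher, embryo 21 had 2 lower and embryo 20 had 1 lower. At 8-fold 6 genes were found. At equal depth (17931620 counts, drawn at random from each library) 13563 to 14159 genes had a count, lowest in embryo 19 and highest in embryo 05, with means of 13879 ± 248 under omega-3 (SD, n = 3) and 13841 ± 201 under omega-6 (SD, n = 5; exact two-sided permutation p = 0.857, adjusted 0.929 over 7 measures).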
